A study of Mus musculus with 8 samples.

Results

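The difference of ablation effects asks whether ablation of the basal lineage of mouse skin did something else to the epidermal cells labelled Lrig1 than to those labelled K14. It is the ablation effect in Lrig1 minus the ablation effect in K14, and it equals the gap between the populations after ablation minus the gap before it. All 8 libraries of the series enter it, with 2 libraries for each population in control mice and 2 in mice after ablation. Per the labels, every library holds polyA RNA of epithelial cells of skin epidermis isolated by fluorescence-activated cell sorting (FACS), control mice are of WT genotype and ablation mice have the genotype Basal lineage ablation. The sources used here do not give age, strain, time after ablation, the agent that killed the cells, or what K14 and Lrig1 stand for in the sorting or the genetics. No label says that libraries of a group came from different mice, so p-values measure the spread between these libraries, which may be technical. Only for the ablation pairs do sex-linked genes, given below, show that the mice were not all the same.

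The basal layer of the epidermis holds the proliferating keratinocytes that attach to the basement membrane through integrins and express Krt5 and Krt14. Cells that leave this layer switch to differentiation keratins, build a cornified envelope and load the barrier with very long chain lipids. Lrig1, a transmembrane inhibitor of EGF receptor signalling, is known from stem cells high in the hair follicle, which can move into the epidermis between follicles after injury.

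Levels are normalised read counts, that is reads divided by a size factor of the library, and differences are on the scale of log2(normalised read count + 1), which understates changes of low genes. The libraries held 6458636 to 11654135 reads, and 3 reads correspond to a normalised read count of 2.12 to 4.23. That floor covers counting error only, because no source used here says that reads were collapsed by molecular identifiers. Krt14 stood at 41781 to 79645 in 7 libraries and at 28052 in Lrig1 ablation 2. The gene Lrig1 read 585 and 656 before and 357 and 1486 after ablation in K14, and 4013 and 4194 before and 1734 and 3575 after it in Lrig1. Ablation replicates differed more than control replicates, with a root mean square difference of 0.825 log2 units in K14 ablation and 0.858 in Lrig1 ablation against 0.399 in K14 control and 0.501 in Lrig1 control. They also differed in sex-linked RNA: the Y-linked gene Ddx3y was at 0.708 in K14 ablation 1 and 0 in Lrig1 ablation 1, but at 759 in K14 ablation 2 and 1285 in Lrig1 ablation 2. Xist, the RNA that coats the inactive X chromosome, was at 66.1 in Lrig1 ablation 2 and at 6948 to 25230 in the other 7 libraries, so the 4 control libraries carried both Xist and Ddx3y (390 to 851). The 2 libraries of each ablation group therefore did not come from the same set of mice, and for the control pairs this is not known. Whether these sex differences take part in the results below was not tested.

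Ablation affected the populations differently in 36 of 18140 tested genes (limma, adjusted p under 0.05; 0.198% of genes). In 34 of these (0.187%) the ablation effect was lower in Lrig1 than in K14, and in 2 (0.011%) it was higher. Adjusted p-values lay between 0.0272 and 0.0475, so every call lay within a factor of 2 of the threshold. Of the 36 genes 33 had a higher mean in Lrig1 control than in K14 control. The gap in control passed the threshold in 30 of the 36 (8.79% of all tested genes) and the gap after ablation in 8 (0.667%). The ablation effect itself passed in Lrig1 in 32 (4.06%) and in K14 in 6 (0.187%), which were Gpx2, Krt17, Fam171a2, Cnn2, 4930517G19Rik and Gm29233. These counts share their libraries with the difference that chose the genes, so they describe the 36 and test nothing. Counting signs alone, 23 of the 36 went down in Lrig1 and up in K14, 11 went down in both but more in Lrig1, and 2 went the other way. The shares of these sign patterns over all tested genes were not counted. By size, the Lrig1 effect was at least 2 times the K14 effect in 21 genes (34.06% of all tested genes). The K14 effect was at least 2 times the Lrig1 effect in 4 (25.78%). In 11 both moved by comparable amounts in opposite directions (19.02%), and in 0 by comparable amounts in the same direction (21.14%).

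The call depends on the control libraries. Without K14 control 1, K14 control 2, Lrig1 control 1 or Lrig1 control 2 it fell to 0 genes (limma; 1370, 1496, 1568 and 1502 at an unadjusted p under 0.05, against 2718 with all libraries), and it was 83 without K14 ablation 1, 144 without K14 ablation 2, 2022 without Lrig1 ablation 1 and 551 without Lrig1 ablation 2. In all of these fits the differences of the 36 genes kept their sign where tested, which was in 33 genes without either Lrig1 control library and in 36 otherwise.

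Genes were sorted by their gap, Lrig1 minus K14, with a gap of at least 1 on the log2 scale counted as apart. By this rule 21 of the 36 genes converged, being apart in control and not after ablation. Another 9 crossed, being apart both times with opposite signs, and 2 diverged, being near in control and apart after ablation. Of the others 1 narrowed, 1 widened and 2 stayed under a gap of 1 both times. In 8 converged genes the ranges of the ablation libraries overlapped: Krt17, Cnn2, Mal2, Sdr9c7, Aox4, Serpinb3d, Gm29233 and 4930517G19Rik. In the other converged genes these ranges did not overlap. The share of all tested genes with overlap was not counted, and overlap of so few libraries does not show equal levels.

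**Figure D1:**
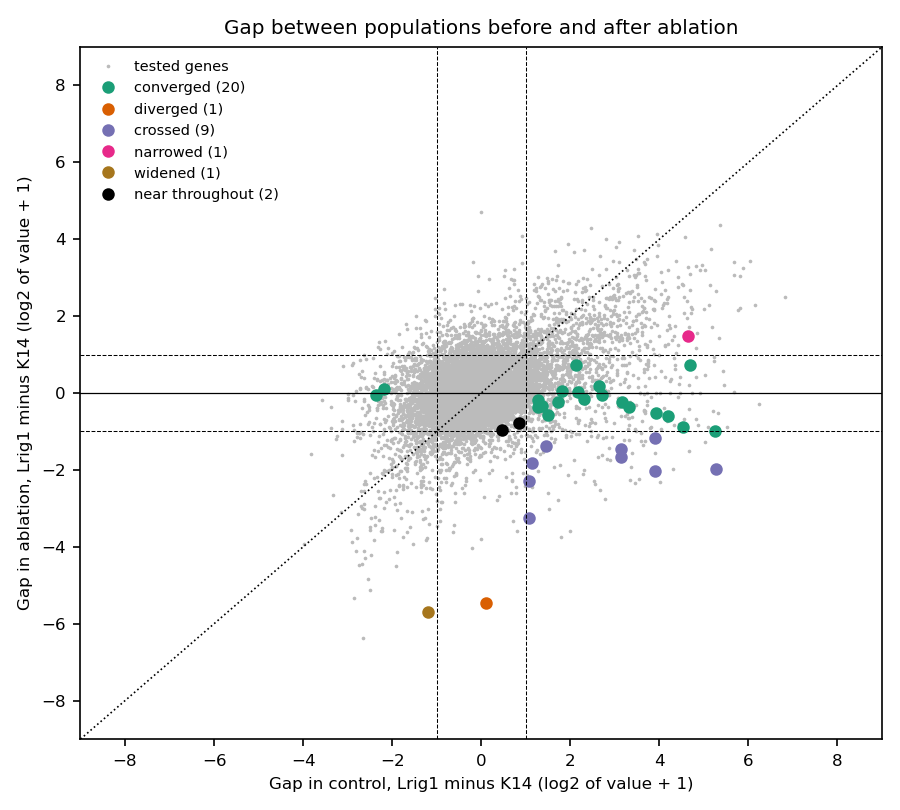
Gap between the populations (Lrig1 minus K14, log2 of value + 1) in control on the x axis and in ablation on the y axis, 1 point per tested gene, with 34 of the 36 genes past the threshold coloured by class; dashed lines mark a gap of 1 and the dotted line marks equal gaps. The 20 converged genes shown lie between the horizontal dashed lines, and the 9 crossed genes and the diverged gene shown lie below them.

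Promoter sequences are shown for 4 of these genes, chosen after their values were seen to stand for each kind of pattern: Elovl4 and Aox4 converged, Krt84 crossed and Slc15a2 diverged. Each line gives the 250 bases before the RefSeq start on the gene's own strand (RefSeq, GRCm38.p6). Capitals mark matches on either strand to 3 short motifs: the AP-1 site TGANTCA, the TATA box TATAAA and the GC box GGGCGG.
Elovl4, chr9:83806306-83806555, minus strand: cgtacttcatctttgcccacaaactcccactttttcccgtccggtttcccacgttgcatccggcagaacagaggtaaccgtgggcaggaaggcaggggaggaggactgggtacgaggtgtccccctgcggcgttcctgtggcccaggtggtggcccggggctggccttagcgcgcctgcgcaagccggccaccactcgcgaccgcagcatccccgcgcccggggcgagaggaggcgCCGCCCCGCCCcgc
Aox4, chr1:58210147-58210396, plus strand: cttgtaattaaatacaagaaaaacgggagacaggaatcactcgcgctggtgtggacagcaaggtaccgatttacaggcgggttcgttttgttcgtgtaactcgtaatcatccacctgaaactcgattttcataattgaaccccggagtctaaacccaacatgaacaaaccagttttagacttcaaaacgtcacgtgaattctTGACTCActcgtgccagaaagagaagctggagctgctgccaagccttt
Krt84, chr15:101532821-101533070, minus strand: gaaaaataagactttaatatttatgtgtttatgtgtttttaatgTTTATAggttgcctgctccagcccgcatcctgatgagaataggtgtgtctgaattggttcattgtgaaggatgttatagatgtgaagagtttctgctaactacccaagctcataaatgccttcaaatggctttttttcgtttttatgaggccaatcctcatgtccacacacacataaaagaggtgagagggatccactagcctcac
Slc15a2, chr16:36784963-36785212, minus strand: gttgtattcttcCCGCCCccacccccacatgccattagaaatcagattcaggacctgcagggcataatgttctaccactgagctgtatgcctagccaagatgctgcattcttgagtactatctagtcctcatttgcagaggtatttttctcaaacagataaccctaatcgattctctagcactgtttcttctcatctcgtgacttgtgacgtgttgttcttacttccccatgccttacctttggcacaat
The Elovl4 stretch has overlapping GC boxes near its end and that of Slc15a2 a GC box near its beginning, all on the opposite strand. That of Aox4 holds an AP-1 site, and that of Krt84 a TATA box on the opposite strand, far from the start. AP-1 and its reverse complement read alike, so a site counts on both strands. RefSeq promoters were matched by symbol for 22 of the 36 genes. Among these 10 held a TATA box (45.5%, against 13.0% of 27025 promoters), 9 a GC box (40.9% against 32.9%) and 3 an AP-1 site (13.6% against 6.87%). These are matches of letters and show no binding.

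Keratin 17 gave a case of both populations meeting at a level between their starting points. Krt17 (ENSMUSG00000035557, GRCm38 chromosome 11, 100256217 to 100261029, minus strand) encodes a keratin of hair follicle and injured epidermis. It read 1901 and 2082 in K14 control and 12654 and 12357 in Lrig1 control. After ablation it read 5722 and 7274 in K14 and 7190 and 7359 in Lrig1, so that the ablation libraries overlapped while the control libraries stood far apart. Krt17 rose in K14 by 1.70 ± 0.17 (SE) and fell by 0.78 ± 0.17 in Lrig1, and the effects differed by -2.48 ± 0.24 (limma adjusted p = 0.0384). Gpx2, a glutathione peroxidase of epithelia, was the other gene past the threshold in both ablation effects with opposite signs. Gpx2 read 13.2 and 9.85 before and 44.6 and 46.1 after ablation in K14, and 331 and 292 before and 126 and 132 after it in Lrig1. Its gap narrowed from 4.65 to 1.49 and did not close, and the effects differed by -3.16 ± 0.34 (limma adjusted p = 0.0384). Gpx2 lies inside Fntb on the opposite strand, whose difference was -0.72 ± 0.24 (limma adjusted p = 0.239). Since the strand setting of the counting is not known, reads of this pair cannot be told apart.

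Vim (ENSMUSG00000026728, chromosome 2, 13573927 to 13582826, plus strand), the intermediate filament gene of mesenchymal, endothelial and blood cells, had the lowest adjusted p. It read 38.6 and 54.2 in K14 control and 611 and 816 in Lrig1 control. After ablation it read 173 and 143 in K14 and 95.8 and 125 in Lrig1. The Lrig1 libraries were therefore highest before ablation and below both K14 libraries after it. Vim fell by 2.68 ± 0.25 in Lrig1, its K14 effect was 1.76 ± 0.25 (limma adjusted p = 0.0566), and the effects differed by -4.44 ± 0.36 (adjusted p = 0.0272). Cnn2, a calponin that binds actin filaments, was the 1 gene past the threshold among 39 tested actomyosin genes. Cnn2 read 128 and 125 before and 306 and 319 after ablation in K14, and 454 and 437 before and 284 and 369 after it in Lrig1. It rose in K14 by 1.30 ± 0.17, with a Lrig1 effect of -0.46 ± 0.17 (limma adjusted p = 0.181), and the effects differed by -1.76 ± 0.24 (adjusted p = 0.0406).

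Other converged genes had estimated effects of opposite sign in the populations, but in each gene below only 1 of the effects passed the threshold. The Lrig1 effect of Fam171a2 did not pass (limma adjusted p = 0.168). Nor did the K14 effects of Fam129b, Cpe and Serpinb3d (limma adjusted p = 0.169, 0.178 and 0.178). Fam171a2, a membrane protein gene, went from 24.4 and 20.7 to 84.9 and 79.3 in K14 and from 114 and 117 to 68.3 and 78.8 in Lrig1. Fam129b, which encodes an adaptor protein of the plasma membrane, read 1801 and 1839 before and 2604 and 3049 after ablation in K14, and 4423 and 4349 before and 2369.5 and 2588 after it in Lrig1. Cpe, the prohormone-processing carboxypeptidase E, kept a gap of 0.73 of its former 2.13. Serpinb3d, a serine and cysteine protease inhibitor gene of a clustered family, read 17.3 and 14.8 before and 54.5 and 34.3 after ablation in K14, and 147 and 195 before and 38.2 and 29.5 after it in Lrig1. Serpinb3d belongs to a group of near-identical copies, so its reads are uncertain where counting could split them.

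**Figure D2:**
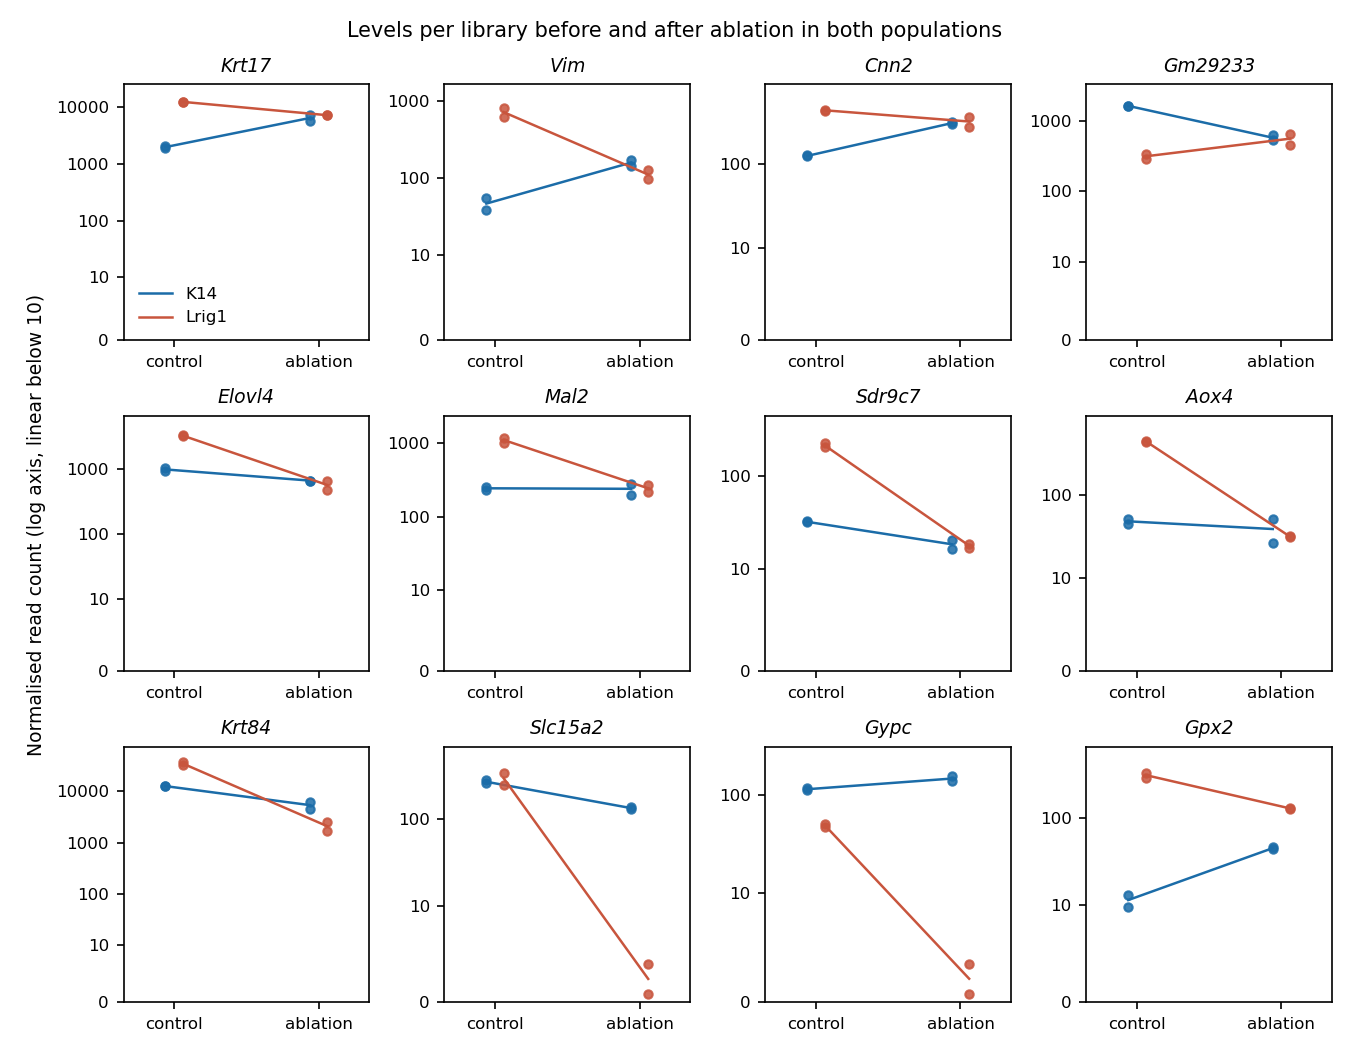
Normalised read count (log axis, linear below 10) in each library for 12 of the 36 genes, with K14 in blue and Lrig1 in red; points are libraries and lines join group means. In Krt17, Cnn2 and Gm29233 the means move from both sides and the ablation libraries overlap. In Vim the means also move from both sides, but the Lrig1 ablation libraries end below those of K14 ablation. Elovl4, Mal2, Sdr9c7 and Aox4 drop in Lrig1 to about the K14 level. Krt84 crosses, Gpx2 narrows, and Slc15a2 and Gypc end apart.

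A second set of converged genes fell in Lrig1 to about the K14 level, with K14 effects that were smaller and did not pass the threshold. Several act in the lipid barrier of the outer epidermis. Elovl4 (ENSMUSG00000032262, chromosome 9, 83778692 to 83806277, minus strand), whose promoter is printed above, elongates the very long chain fatty acids of barrier ceramides. It read 1017 and 929 before and 658 and 654 after ablation in K14, and 3162 and 3272 before and 478 and 646 after it in Lrig1. Both Lrig1 ablation libraries thus lay just below both K14 ablation libraries, and the effects differed by -1.96 ± 0.23 (limma adjusted p = 0.0401). Elovl7, another elongase of fatty acids, went from 1553 and 1689 to 316 and 415 in Lrig1, against 633 and 620 to 465 and 451 in K14. Sdr9c7, a dehydrogenase needed for the lipid envelope of corneocytes, read 32.5 and 31.5 before and 16.3 and 20.4 after ablation in K14, and 204 and 226 before and 18.6 and 16.7 after it in Lrig1. Its gap went from 2.71 to -0.04.

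Aox4, an aldehyde oxidase that can make retinoic acid, read 431 and 441 before and 31.95 and 31.05 after ablation in Lrig1, inside the K14 ablation range of 26.8 to 50.9. The antisense gene Gm15759 overlaps it and had a difference of -2.89 ± 0.64 (limma adjusted p = 0.11), and since the strand setting of the counting is not known, reads of the pair cannot be told apart. Mal2, which acts in transport across polarised cells, read 1019 and 1193 before and 218 and 267 after ablation in Lrig1, against 232 to 279 in 3 K14 libraries and 198 in K14 ablation 2. Aldh3b2, a lipid aldehyde dehydrogenase, closed its gap from 1.28 to -0.35. The uncharacterised gene 6430548M08Rik, which overlaps the longer model Gm20388 on the same strand, went from a gap of 1.51 to -0.57. In all of these the Lrig1 effect passed the threshold, with values from -3.75 in Aox4 to -1.75 in Aldh3b2, and the K14 effect did not (-0.78 in Sdr9c7 to 0.29 in 6430548M08Rik).

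Among the wider epidermal differentiation list, 42 of 49 genes were tested and Elovl4 was the 1 past the threshold. All 42 had negative differences, 32 at an unadjusted p under 0.05 (limma). At that level 9.5% of all tested genes were lower and 5.49% higher, shares that apply to every list below. Negative differences of any size were found in 9458 of the 18140 tested genes, the background for the sign counts of every list. The median gap of the list went from 1.95 in control to 0.17 after ablation, with a median difference of -1.90 against -0.03 over all tested genes. Dmkn, a secreted protein of the suprabasal layers, fell just outside the threshold at -1.45 ± 0.21 (limma adjusted p = 0.0522). Krt10, the main keratin of the suprabasal layers, read 46312 and 42573 before and 33301 and 25807 after ablation in K14, and 66749 and 78428 before and 16215 and 16816 after it in Lrig1. Its difference was -1.53 ± 0.35 (limma adjusted p = 0.115), and the Lrig1 libraries went from the highest to the lowest. Its partner Krt1 was higher in both K14 ablation libraries than in both K14 control libraries. Krt1 read 15925 and 15135 before and 42464 and 24209 after ablation in K14, and 26052 and 28142 before and 13588 and 11996 after it in Lrig1, with a difference of -2.13 ± 0.40 (limma adjusted p = 0.075).

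The 9 crossed genes were Krt84, Sprr2b, Sprr2a2, Nptx1, 2310050C09Rik, Sele, Plvap, Ctss and Laptm5, the last 4 of which are described with vessel and blood cell genes. Krt84 (ENSMUSG00000044294, chromosome 15, 101525026 to 101532820, minus strand) encodes a hard keratin of the kind found in hair, nail and scale. It read 12354 and 12681 before and 4587 and 6095 after ablation in K14, and 31890.3 and 36926 before and 2465 and 1693 after it in Lrig1. Both populations were lower after ablation, and the order of the populations turned over, from a gap of 1.45 to -1.37. The difference was -2.83 ± 0.33 (limma adjusted p = 0.0401). Krt84 was the 1 gene past the threshold of 30 tested hair shaft and root sheath genes, in which 30 had negative differences and 17 an unadjusted p under 0.05 (all lower). The list's median gap went from 3.30 to 0.21 and its median difference was -2.65, or -2.22 with the 2 members that have a group at 0 set to 3 reads. Without K14 ablation 2 it was -1.64. Krt36, another hard keratin of this kind, read 8122 and 8038 before and 1978 and 3991 after ablation in K14, and 18064 and 20536 before and 1354 and 748 after it in Lrig1, with a difference of -2.73 ± 0.51 (limma adjusted p = 0.075). Hair keratins differed between the Lrig1 control libraries themselves: Krt31 read 86.1 and 355 there, against 0.887 to 11.8 in the other 6 libraries.

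The small proline-rich genes Sprr2b and Sprr2a2, which encode cross-linked proteins of the cornified envelope, crossed as well. Sprr2b read 26.4 and 11.8 before and 14.9 and 21.4 after ablation in K14, and 183 and 149 before and 4.44 and 5.57 after it in Lrig1, a difference of -4.81 ± 0.62 (limma adjusted p = 0.0401). Sprr2a2 had a K14 effect of 2.48 ± 0.41 (limma adjusted p = 0.0831) and fell by 1.86 ± 0.41 in Lrig1. Its model overlaps that of Sprr2a1, a near-identical copy with a difference of -4.38 ± 0.71 (limma adjusted p = 0.0652), so the division of reads between them is uncertain. The uncharacterised gene 2310050C09Rik on chromosome 3 fell by 4.35 ± 0.25 in Lrig1, from 243 and 223 to 10.7 and 10.3, with a K14 effect of -1.39 ± 0.25 (limma adjusted p = 0.112). Nptx1, a secreted pentraxin, read 19.3 and 23.6 before and 55.2 and 42.9 after ablation in K14, and 45.4 and 46.5 before and 8.88 and 9.55 after it in Lrig1. For Sprr2a2, Nptx1 and 2310050C09Rik the gap after ablation passed the threshold by itself, and for the other crossed genes it did not.

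Slc15a2 opened a gap that was not there in control. Slc15a2 (ENSMUSG00000022899, chromosome 16, 36750177 to 36784962, minus strand), a proton-coupled transporter of small peptides, read 278 and 256 in K14 control and 340 and 245 in Lrig1 control, which overlap. After ablation it read 130 and 136 in K14 and 0.887 and 3.98 in Lrig1, which are 1 and 5 reads. The gap went from 0.11 to -5.45 ± 0.42 and the effects differed by -5.56 ± 0.60 (limma adjusted p = 0.0384).

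Gypc, which encodes glycophorin C of the membrane skeleton, was the 1 gene whose gap widened. It read 113 and 117 before and 139 and 157 after ablation in K14, and 51.2 and 47.9 before and 3.55 and 0.796 after it in Lrig1. The gap went from -1.20 to -5.70. Lypd3, a membrane-anchored protein of the Ly6 family found above the basal layer, and Map7d1, a microtubule-binding protein gene, stayed within a gap of 1 but changed order. Lypd3 read 1949.9 and 2038 before and 1666 and 1403 after ablation in K14, and 3554 and 3620.0 before and 922 and 874 after it in Lrig1, and its antisense partner Gm26550 had a difference of -1.34 ± 0.20 (limma adjusted p = 0.06). Map7d1 had the gap 0.47 before and -0.97 after ablation.

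**Figure D3:**
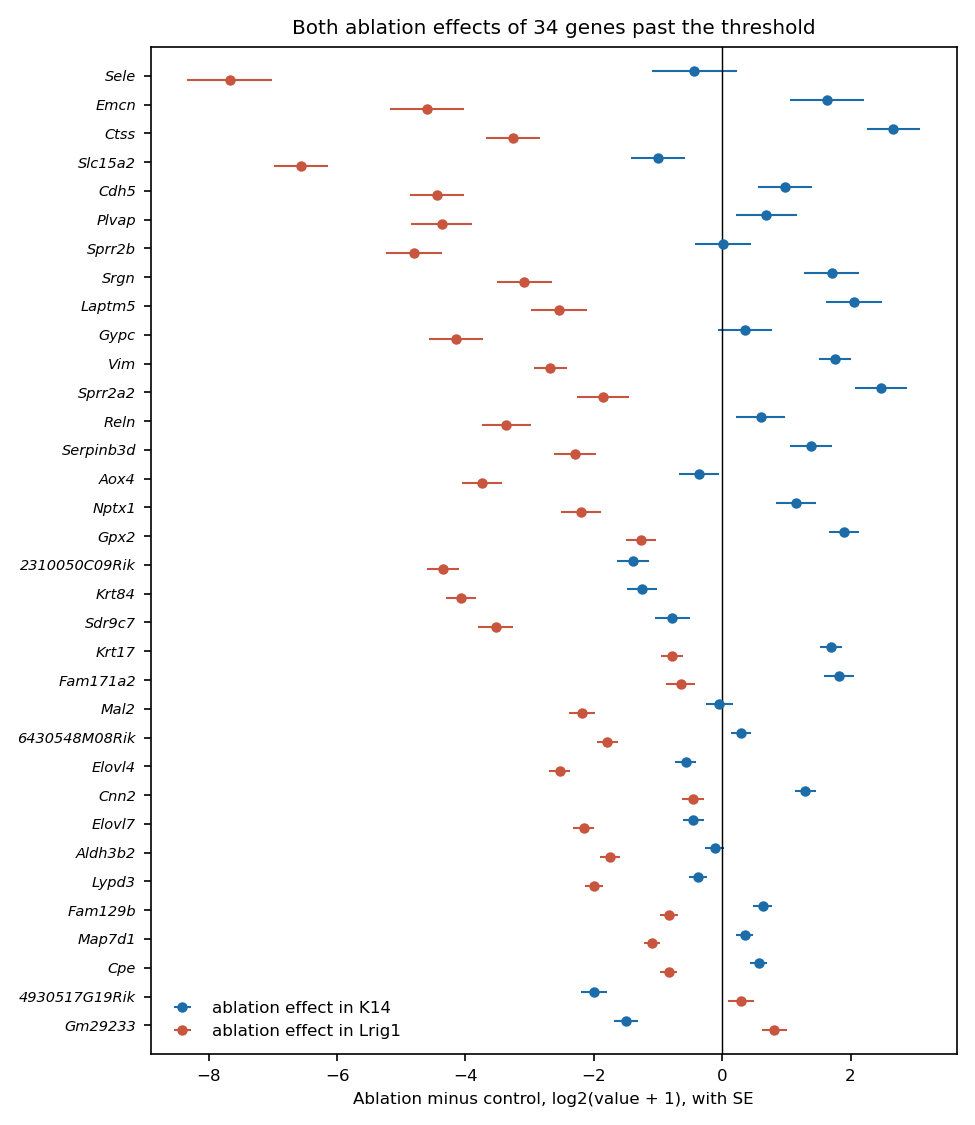
Ablation minus control (log2 of value + 1) with its SE in K14 (blue) and in Lrig1 (red) for 34 of the 36 genes, ordered by the difference of the effects. The Lrig1 effect is left of the K14 effect in all of them except 2, 4930517G19Rik and Gm29233.

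Both genes with a higher effect in Lrig1 are short models that lie on the strand opposite to a protein-coding gene, and both converged. Gm29233 (ENSMUSG00000101859, a lincRNA, chromosome 2, 118123451 to 118124047, minus strand) lies inside Thbs1 (118111876 to 118127133, plus strand), which encodes thrombospondin 1, a matrix glycoprotein of wounds. Gm29233 read 1611 and 1625 before and 529 and 617 after ablation in K14, and 291 and 334 before and 456 and 656 after it in Lrig1. K14 was thus highest before ablation, and the ablation libraries of both populations overlapped. It fell by 1.499 ± 0.19 in K14, its Lrig1 effect was 0.81 ± 0.19 (limma adjusted p = 0.0604) and the effects differed by 2.31 ± 0.27 (adjusted p = 0.0401).

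Thbs1 stood at higher levels than Gm29233 in each library. Thbs1 read 21818 and 22435 before and 7278 and 9339 after ablation in K14, and 4548 and 5037 before and 6266 and 9786 after it in Lrig1, with a difference of 2.13 ± 0.34 (limma adjusted p = 0.0652). The other pair is 4930517G19Rik (ENSMUSG00000108784, annotated as TEC, to be experimentally verified, chromosome 6, 91689933 to 91691608, minus strand) inside Slc6a6 (91684053 to 91759066, plus strand), the taurine transporter gene. 4930517G19Rik read 321 and 329.8 before and 86.3 and 75.04 after ablation in K14, and 64.03 and 77.5 before and 80.8 and 93.1 after it in Lrig1, a difference of 2.30 ± 0.29 (limma adjusted p = 0.0401). Slc6a6 read 7809.9 and 7876 before and 4182 and 4198 after ablation in K14, and 3645 and 3843 before and 6749 and 2929 after it in Lrig1, a difference of 1.15 ± 0.47 (limma adjusted p = 0.306). The strand setting of the counting is not known, so reads of each short model and of the gene around it cannot be told apart.

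**Figure D4:**
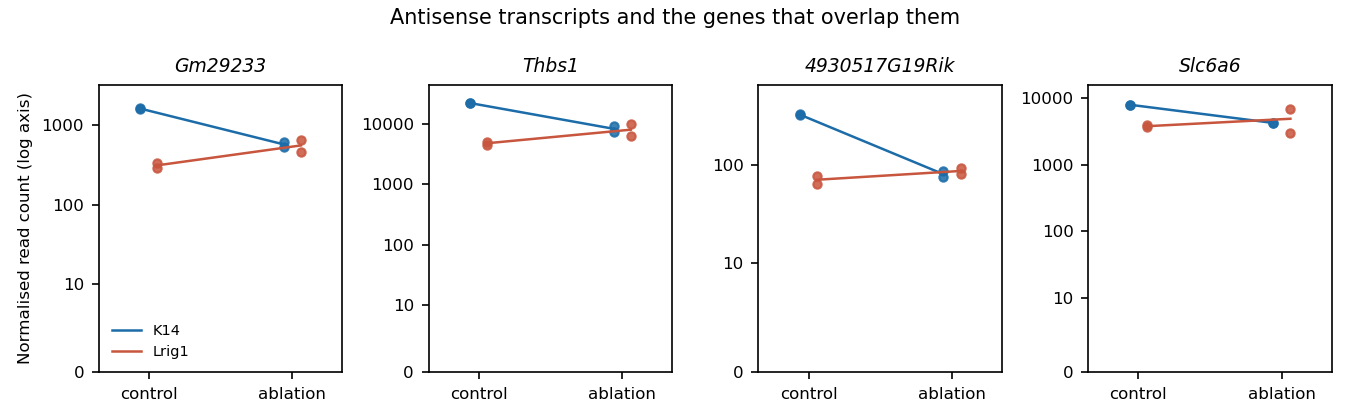
Normalised read count (log axis, linear below 10) in each library for Gm29233 and Thbs1 and for 4930517G19Rik and Slc6a6, with K14 in blue and Lrig1 in red and lines joining group means. In all 4 genes the ablation libraries of both populations overlap, and in Slc6a6 the Lrig1 ablation libraries lie on either side of K14 ablation.

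Of 15 tested endothelial and mural genes 4 passed, all lower, and 13 were lower at an unadjusted p under 0.05, against 9.5% of all tested genes. Each of the 4, Sele, Cdh5, Plvap and Emcn, read at most 4.44 in Lrig1 ablation. To be tested a gene had to reach 1e-06 of a library's total in 2 libraries or more. Sele and Emcn did so only in Lrig1 control, so their differences could hardly be other than negative. How many members of this and other lists entered in this way was not counted. The counts and medians of this list are thus partly set by the filter, and those of other lists may be. Sele, the endothelial adhesion receptor E-selectin, read 3.05 and 5.91 before and 6.37 and 1.07 after ablation in K14. In Lrig1 it read 218 and 189 before ablation and 0 in both libraries after it. Its level in Lrig1 was at least 80.5-fold lower after ablation, against a floor of 3 reads per library. The K14 ablation mean of 3.72 was 1.47 times that floor, so the crossing of Sele rests on values near the floor. The gap after ablation did not pass in Sele or in Plvap (limma adjusted p = 0.221 and 0.273). Cdh5, the cadherin of endothelial junctions, read 3.05 and 3.94 before and 7.08 and 8.58 after ablation in K14, and 93.1 and 113 before and 4.44 and 3.18 after it in Lrig1. Plvap, of the diaphragms of fenestrated vessels, and Emcn, an endothelial sialomucin, had Lrig1 control levels of 71.9 to 89.6 and 50.1 to 55.0, and in the other 6 libraries Plvap was at most 10.7 and Emcn at most 3.54.

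Reln, the extracellular glycoprotein reelin, was the 1 gene past the threshold of 6 tested lymphatic endothelial genes, all 6 of which had negative differences at an unadjusted p under 0.05. Reln read 193 and 186 in Lrig1 control, 21.3 and 14.3 in Lrig1 ablation and 5.08 to 12.03 in the K14 libraries. The endothelial list's median gap went from 4.53 to -0.31 and its median difference was -5.06, or -4.57 with the 2 members that have a group at 0 set to 3 reads. The lymphatic list's went from 4.44 to 0.79. The summed level of the endothelial list was 808 to 1170 over the 4 K14 libraries. In Lrig1 it was 1999 and 2164 before ablation and 1254 and 1262 after it. In such bulk samples fewer cells of a type and less RNA per cell cannot be told apart.

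Ctss, Laptm5 and Srgn, genes known from blood cells but in none of the lists, also fell in Lrig1. Their K14 effects were 2.67, 2.06 and 1.71, which did not pass (limma adjusted p = 0.0689, 0.152 and 0.191). Ctss, a lysosomal protease of antigen-presenting cells, read 5.08 and 7.88 before and 38.2 and 54.7 after ablation in K14, and 82.7 and 142 before and 12.4 and 8.76 after it in Lrig1. The gap of Ctss crossed, and the difference was -5.93 ± 0.59 (limma adjusted p = 0.0384). Laptm5, a lysosomal membrane protein of blood cells, read 4.06 and 2.95 before and 16.98 and 18.2 after ablation in K14, and 30.3 and 49.3 before and 5.33 and 6.37 after it in Lrig1. The gap of Laptm5 crossed from 3.15 to -1.45. Srgn, the granule proteoglycan serglycin, converged, from 3.05 and 1.97 to 9.91 and 10.7 in K14 and from 59.4 and 66.3 to 5.33 and 7.96 in Lrig1. In the myeloid and Langerhans cell list 0 of 15 tested genes passed (limma), but 14 had an unadjusted p under 0.05, all lower, and the median gap went from 2.14 to -0.84.

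The list's defining genes were present at low levels. Ptprc, the leukocyte antigen CD45, read 4.06 and 2.95 before and 35.4 and 19.3 after ablation in K14, and 39.6 and 80.3 before and 7.10 and 15.1 after it in Lrig1, with a difference of -4.93 ± 0.77 (limma adjusted p = 0.0641). The Langerhans cell marker Cd207 was at 0 to 5.66 over the K14 libraries. In Lrig1 it read 34.9 and 23.96 before ablation and 2.66 and 3.18 after it. The myeloid list summed to 772 and 955 before and 979 and 2395 after ablation in K14, and to 3084 and 3603 before and 1146 and 1504 after it in Lrig1. Vim moved together with these lists, and the part of vessel and blood cells in its difference was not tested. Of the other marker lists, 0 genes passed among 9 tested fibroblast, 3 T cell, 2 neutrophil, 6 melanocyte, 3 Merkel cell and 1 erythroid genes (limma), with 2 fibroblast genes lower and 1 melanocyte gene higher at an unadjusted p under 0.05.

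Several other lists had no gene past the threshold. Of 37 tested cell-cell junction genes 0 passed (limma) and 20 were lower at an unadjusted p under 0.05, against 9.5% of all tested genes. The median gap of this list went from 0.73 to -0.22. Nectin1, an adhesion receptor of adherens junctions, read 2013 and 2097 before and 2914 and 2555 after ablation in K14, and 4693 and 4550.3 before and 2523 and 2272 after it in Lrig1, with a difference of -1.36 ± 0.20 (limma adjusted p = 0.059). In the cholesterol synthesis list 0 of 24 passed and 10 were lower at an unadjusted p under 0.05. Its median gap was 0.51 in control and -0.07 after ablation, or 0.13 after ablation without K14 ablation 2. All 15 mitochondrially encoded genes had negative differences, 5 of them at an unadjusted p under 0.05, and their share of normalised reads was 2.34 to 2.91% over the 4 K14 libraries, against 6.29 and 6.89% before and 3.14 and 4.14% after ablation in Lrig1.

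Injury-related genes gave few calls. Of 27 tested activated keratinocyte genes Krt17 was the 1 past the threshold, and at an unadjusted p under 0.05 there were 8 lower and 1 higher. Over all tested genes 9.5% were lower and 5.49% higher at that level. Ereg, the EGF receptor ligand epiregulin, read 19.3 and 18.7 before and 314 and 111 after ablation in K14, and 74.5 and 125 before and 54.1 and 34.2 after it in Lrig1, with a difference of -4.38 ± 0.70 (limma adjusted p = 0.0652). Krt6a, a keratin induced by injury, read 2690.3 and 2586 before and 11408 and 8978 after ablation in K14, and 4541 and 5173 before and 7754 and 3487 after it in Lrig1, with a difference of -1.84 ± 0.47 (limma adjusted p = 0.147). Upper hair follicle genes had 1 of 18 past the threshold, again Krt17, with median gaps of 2.40 and 1.40. Their median difference of -1.10 was -0.21 without K14 ablation 2.

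Of the basal keratinocyte, integrin and cell cycle lists 0 genes passed (limma), and their medians depend on Lrig1 ablation 1. The basal keratinocyte list summed to 290729 in Lrig1 ablation 1 and 146870 in Lrig1 ablation 2, against 156105 and 169035 in control. The integrin list summed to 92504 and 54860 after ablation in Lrig1, and the cell cycle list to 33196 and 17522. Integrin and basement membrane genes had a median gap of -0.78 in control and -0.33 after ablation, with 9 of 35 higher and 3 lower at an unadjusted p under 0.05, where 5.49% of all tested genes were higher. Col7a1, the collagen of anchoring fibrils, read 3813 and 4235 before and 3597 and 3617 after ablation in K14, and 1376 and 1238 before and 2817 and 1830.1 after it in Lrig1, with a difference of 0.95 ± 0.29 (limma adjusted p = 0.204). Basal keratinocyte genes had a median gap of -0.89 in control and -0.37 after ablation, with 3 of 20 higher at an unadjusted p under 0.05 and 6 of 20 with negative differences. Without Lrig1 ablation 1 the median difference of this list was 0.04 instead of 0.45, and that of the integrin list 0.11 instead of 0.56. Cell cycle genes had positive differences in 39 of 40, with a median of 0.31, 0 past the threshold and 1 at an unadjusted p under 0.05. Without Lrig1 ablation 1 the cell cycle median was -0.16, with 11 of 40 positive. Bulge and germ genes had a median gap of 1.49 in control and 1.62 after ablation, with 4 of 18 higher and 2 lower at an unadjusted p under 0.05 and 8 of 18 with negative differences. Their median difference of 0.16 was -0.22 without Lrig1 ablation 2. Lgr5, a stem cell receptor of the lower follicle, stood out there: it read 30.5 and 48.2 before and 63.7 and 30.02 after ablation in K14, and 67.5 and 52.2 before and 181 and 493 after it in Lrig1, with a difference of 2.13 ± 0.74 (limma adjusted p = 0.251).

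**Figure D5:**
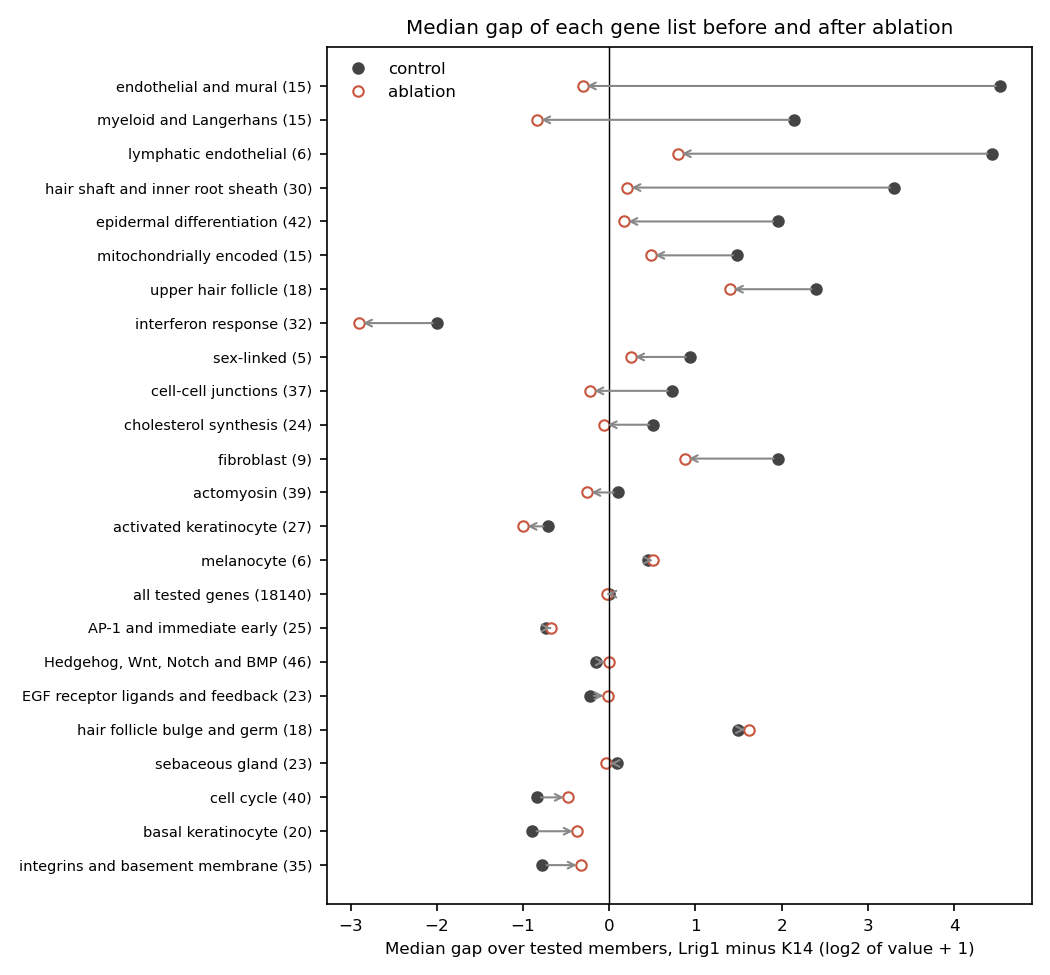
Median gap between the populations (Lrig1 minus K14, log2 of value + 1) over the tested members of each gene list, in control (filled) and after ablation (open), with the number of tested members in brackets. Endothelial, myeloid, hair shaft and differentiation lists move from well above 0 to near or below 0, interferon genes move from -1.999 to -2.91, and the bulge and germ median is 1.49 in control and 1.62 after ablation.

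Interferon response genes were the list with the widest gap after ablation, a median of -2.91 against -1.999 in control, and 0 of 32 passed for the difference (limma; 0 at an unadjusted p under 0.05). Their median difference of -0.84 was 1.44 without K14 ablation 2 and -3.31 without K14 ablation 1. Their summed level was 26409 in K14 ablation 2 and 2030 in K14 ablation 1. EGF receptor ligands and feedback genes had 0 of 23 past the threshold, with 3 higher and 5 lower at an unadjusted p under 0.05. Over all tested genes these shares were 5.49% and 9.5%. The AP-1 list (0 of 25, with 1 higher and 1 lower), the list of Hedgehog, Wnt, Notch and BMP genes (0 of 46, with 6 higher and 6 lower) and the sebaceous list (0 of 23, with 2 lower) showed no common direction by these counts.

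Over all tested genes the populations lay closer together after ablation. The root mean square gap, computed from products of separate library pairs, was 0.876 log2 units in control and 0.416 after ablation. These products leave out only noise that is independent between the 2 libraries of a group. If the control libraries of a group share mice, variation between mice stays in the control gap. The 2 values may therefore not be fully comparable, which was not tested. The gap after ablation had a slope of 0.327 on the gap in control (Pearson r = 0.42, Spearman rho = 0.278 across 18140 genes, which share the same libraries and are not independent). The count of genes past the threshold for the gap was 1594 in control (8.79%) and 121 after ablation (0.667%), under the same estimate of spread per gene.

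Of the 1183 genes higher in Lrig1 control (6.52%) the median gap was 1.91 in control and 0.45 after ablation, and 66 passed in the same direction after ablation. The 411 genes lower in Lrig1 control (2.27%) went from a median of -1.14 to -0.34, and 11 passed again. These genes were chosen for a large gap in control, so that some narrowing follows from the choice, and its part was not tested. By the gap of 1 alone, with no test, 1925 tested genes converged (10.6%), 955 diverged (5.26%) and 134 crossed (0.739%). The K14 and Lrig1 ablation effects themselves, which share no library, had a correlation of r = 0.127 across the tested genes (Spearman rho = 0.0908).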

How the data were processed

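The deposited table holds a normalised signal per gene for 32574 genes in 8 libraries. Per the submitters' processing notes, Trimmomatic, STAR, Picard and HTSeq (0.11.1) were used on GRCm38 (mm10); the sources used here do not give their roles, the strand setting or the program behind the size factors. Every deposited value was a whole multiple of a step of its library within 0.001 (100% of values), so whole reads were recovered by dividing by it. The 4 ablation columns name the population but use another word for the condition, and were assigned to ablation since each population has only 1 further group; their numbers come from the column names.

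Tests used limma 3.58.1 in R 4.3.3 on log2(value + 1) with trended variances, as a single model holding a mean for each of the 4 groups (4 residual and 4.13 prior degrees of freedom). This model gives control and ablation libraries the same spread per gene. Since ablation replicates differed more than control replicates, its degrees of freedom may be overstated and its p-values too small. The 18140 tested genes reached 1e-06 of a library's total in 2 libraries or more. P-values were adjusted by Benjamini-Hochberg over all tested genes, with a threshold of 0.05 and no limit on fold. Named were the genes past the threshold with a mean of at least 20 in a group, by size within each class, and then, because they were few, all but 2 of the 36, which are not reported here; genes outside the threshold were picked from the lists after their values were seen. Members and the 27 lists were chosen with earlier results of these data known. Replicate pairs differed by more than sampling noise, so no pair was merged as a library deposited again. The chi-square per gene was 1.57 in K14 control and 2.58 in Lrig1 control, against 27.7 in K14 ablation and 39.5 in Lrig1 ablation. This alone does not show that they are separate mice. Ddx3y shows mice that were not all the same in the ablation pairs, and nothing here does so for the control pairs. The fit was tested on simulated data with known changes. These data had the same dispersion per gene in all groups, so that test cannot show how the unequal spread of the libraries affects the fit. Alternatives included edgeR 4.0.16 and DESeq2 1.42.0 on the recovered reads. Gene positions come from GENCODE release M21 on GRCm38, in which 32427 identifiers were found, and promoters from RefSeq on GRCm38.p6.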

Additional observations from a re-analysis of the deposited data

Results flagged for a closer look

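The ablation effects in Lrig1 and K14 differed by limma's test of that difference in 36 genes, and 34 of them are given here by their difference, Lrig1 minus K14, on the log2(value + 1) scale. Among genes known from vessels or blood cells it was -7.23 in Sele, -6.23 in Emcn, -5.93 in Ctss and -5.42 in Cdh5. In other such genes it was -5.06 in Plvap, -4.79 in Srgn, -4.59 in Laptm5 and -3.97 in Reln.

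Keratin and envelope genes had differences of -4.81 in Sprr2b, -4.34 in Sprr2a2, -2.83 in Krt84 and -2.48 in Krt17. Genes of lipid and aldehyde metabolism had -3.39 in Aox4, -2.75 in Sdr9c7, -1.96 in Elovl4, -1.71 in Elovl7 and -1.63 in Aldh3b2. The membrane and transport genes had -5.56 in Slc15a2, -4.50 in Gypc, -2.14 in Mal2, -2.47 in Fam171a2, -1.61 in Lypd3 and -1.45 in Fam129b.

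The other lower genes were Vim at -4.44, 2310050C09Rik at -2.96, Serpinb3d at -3.68, Nptx1 at -3.35, Gpx2 at -3.16, 6430548M08Rik at -2.08, Cnn2 at -1.76, Map7d1 at -1.45 and Cpe at -1.40. The higher ones were 4930517G19Rik at 2.30 and Gm29233 at 2.31. Groups of 2 libraries are too small for a test of single outlying libraries.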

How the results depend on the processing

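Every alternative kept the sign of the difference in each of the 36 genes it tested, and what changed was how many passed. The count stayed at 32 to 36 with a pseudocount of 0.5 (33), TMM scaling (36), edgeR (32) or no variance trend (33, of which 16 were among the 36). A pseudocount of 10 called 98 genes (77 converged, 7 diverged, 4 crossed), array weights per library 146 (92, 13 and 19) and DESeq2 308 (163, 34 and 47, with 1407 genes given no adjusted p). A weight per condition, added after seeing the data because ablation replicates differ more, called 178 (109, 17 and 26). No filter on low values called 5 (2, 1 and 1, over 32306 genes) and a filter of 1e-05 of the total called 2 (2, 0 and 0, over 11031 genes, 29 of the 36 among them). The replicate block called 1, which converged (0 diverged, 0 crossed). Deviations of same-numbered libraries had correlations of -0.0491 to 0.0838 between groups, so over all genes the numbers marked no shared deviation. Ddx3y did follow the number in the ablation groups, being near 0 in both libraries numbered 1 and high in both numbered 2. Whether the numbers mark a shared sex or batch cannot be told from these correlations. Leaving out each library in turn gave 0 to 2022 genes, with 0 to 298 converged, 0 to 496 diverged and 0 to 109 crossed; a library left alone in its group is assumed to vary like the others. Vim passed in 15 of 19 alternatives, Krt17 in 14 and Gypc in 8. With a gap of 0.5 as apart, 13 converged, 2 diverged and 17 crossed; with a gap of 2 these were 20, 4 and 1. Causes of these shifts were not tested. Emcn, near the floor of 3 reads, had a difference of -7.13 with a pseudocount of 0.5, -6.23 with 1 and -2.83 with 10. Medians of the lists were also taken with each ablation library left out, chosen after seeing the data; among others, those of the cell cycle, bulge, interferon, sebaceous and Hedgehog, Wnt, Notch and BMP lists changed sign with 1 library left out.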
